A study of Mus musculus with 6 samples.

Results

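The transcripts of 45 genes of DNA replication and S phase were followed across 6 libraries of RNA from muscle stem cells of mice. The genes were chosen by symbol from a list of replication factors, and all 45 were among the 14515 genes of the table. They cover origin licensing, the replicative helicase, its activators, the sliding clamp and its loader, the polymerases, single-strand binding, the joining of Okazaki fragments, nucleotide supply, G1/S control and chromatin assembly. The libraries fall into 3 groups of 2, labelled wild type (wt), mdx, and mdx/Ripk3mKO. The mdx mouse lacks dystrophin through a mutation of Dmd and serves to model Duchenne muscular dystrophy. The labels do not spell out mKO and give no promoter, Cre driver, age or sex. By the sample labels the RNA is from quiescent satellite cells taken straight from a sort. By the series text it is from wild-type cells that were activated and kept for 72 hours under a transwell holding wt, mdx or mdx/Ripk3mKO cells, and on that account all sequenced cells are wild type. The groups are therefore named by their labels. The labels tie no library to an animal or culture of its own. P-values therefore measure only how these libraries spread, and that spread may be technical.

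DNA replication is prepared in G1, when the origin recognition complex, Cdc6 and Cdt1 load the MCM2-7 helicase onto origins, and it is fired in S phase, when Cdc45 and the GINS complex turn the helicase on. Polymerases alpha, delta and epsilon then copy the DNA, held by the PCNA clamp, while ribonucleotide reductase supplies deoxynucleotides. E2F transcription factors drive many of these genes as cells enter the cycle, and resting satellite cells, which stay outside the cycle until muscle is injured, express them at low levels.

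E2F sites are read here from promoter letters, which the choice of genes by symbol did not use directly. Since E2F drives many of these genes, as stated above, a high share is no independent evidence. The set of all genes was not matched for CpG content or expression. RefSeq promoter windows of GRCm38.p6, reaching from 250 bases before to 50 after a gene's start, were matched by symbol for 37 of the 45 genes. The letters TTTNNCGC, which include the E2F consensus, were found on either strand in 15 of these 37 genes, or 40.5%, against 5.9% of 27025 genes with a window. Windows with at least 2 matches belonged to 5 of the 37 genes, against 0.4% of all genes. CCAAT, the core bound by NF-Y, was found in 59.5% of the 37 and in 41.1% of all genes. TTTGAA, the cell cycle homology element of many mitotic genes, was found in 13.5% against 20.2%. A match of letters is a description and shows no binding. Overlapping matches on both strands were counted separately.

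The following stretches show the licensing and helicase genes with a match upstream of a RefSeq start. They are written 5′ to 3′ on the gene's strand, with the matched letters in capitals and 15 bases on each side. They lie at chr11:98907998-98908035 (plus strand) for Cdc6, chr4:108579412-108579449 (plus) for Orc1, chr8:75109341-75109382 (plus) for Mcm5, chr1:128359730-128359830 (minus) for Mcm6 and chr5:138172026-138172063 (minus) for Mcm7. Those of Mcm5 hold 2 overlapping matches and those of Mcm6 hold 3, of which 2 overlap. By the gene coordinates used elsewhere here, Cdc6 starts at 98907801 and Mcm7 at 138172422. The stretches of Cdc6 and Mcm7 therefore lie inside those gene bounds.
Cdc6: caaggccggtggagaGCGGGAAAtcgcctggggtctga
Orc1: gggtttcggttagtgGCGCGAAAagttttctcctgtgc
Mcm5: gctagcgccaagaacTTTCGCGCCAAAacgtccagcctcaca
Mcm6: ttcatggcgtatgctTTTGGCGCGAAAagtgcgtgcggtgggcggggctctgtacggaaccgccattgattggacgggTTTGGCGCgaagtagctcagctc
Mcm7: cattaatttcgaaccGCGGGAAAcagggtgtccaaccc

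Totals of the deposited scaled counts lay between 20611974 and 21037153 a library. Depth before scaling was estimated at 1.204 and 1.206 times that total in the mdx/Ripk3mKO libraries and at 0.870 to 0.954 times in the others, so depth and this label cannot be told apart. Levels in CPM divide a gene's scaled count by the total of its library. The satellite cell factor Pax7 was present at 84.6 to 103 CPM and the proliferation marker Mki67 at 660 to 820. The differentiation factor Myog was at 1300 to 1700, Myod1 at 904 to 1137, Des at 1581 to 1829 and Mymk at 500 to 602. Acta1 had the highest mean of the 10 myogenic markers, at 3168 to 4058. Of 8 quiescence markers 7, all but Calcr, were listed, summing to 248 to 295 CPM. They ran from Sdc4 at 105 to 111 down to Cd34 at 0.095 to 0.58. Of 8 blood cell markers 2 were listed, summing to 1.33 to 2.03 CPM, and of 6 endothelial markers 4, summing to 1.54 to 2.38. Of 6 pericyte and smooth muscle markers 5 were listed, summing to 1835 to 2568 CPM, most of it Acta2 at 1745 to 2472. The rest were far lower, Cspg4 at 57.5 to 85.4, Pdgfrb at 12.0 to 21.5, Mcam at 9.80 to 11.6 and Rgs5 at 0.53 to 1.31. Myh11 was not listed. In these lists limma called Cspg4 (0.44 ± 0.07, adjusted p = 0.0289) and Heyl (-0.77 ± 0.09, adjusted p = 0.0162) between mdx/Ripk3mKO and mdx, and their part in the results was not tested. Ripk3 did not set the groups apart, with scaled counts of 45 and 32 (wt), 23 and 36 (mdx) and 17 and 33 (mdx/Ripk3mKO). Reads summed over a gene do not check a deletion of some of its exons. Library 1 of mdx/Ripk3mKO stood apart in sex-linked RNA, with 6918 scaled counts of Xist against 164 to 666 elsewhere and 373 of the Y-linked Ddx3y against 1543 to 1785. Its 8 fibroblast markers, of which 4 were listed, summed to 16.9 CPM against 3.76 to 8.59 elsewhere, which Col1a1 alone set apart, at 13.6 against 1.01 to 4.66. For the 45 genes, counts on each side of 0, medians and differences that change sign or move by over 1.5 times without it are also given without it. Group comparisons of the other gene lists include this library and are not given without it.

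Replication genes were present in every library at levels that differed widely between genes. Together the 45 genes, of 14515 listed, made up 0.439% to 0.487% of all scaled counts. In CPM their sum was 4394 to 4868, of which Rrm2 gave a mean of 961 and Rrm1 a mean of 502. Levels are compared between genes as CPM per kb of the principal transcript (APPRIS, GENCODE vM21), averaged over 6 libraries with the SD. The ribonucleotide reductase subunits led, Rrm2 at 438 ± 23.6 and Rrm1 at 126 ± 3.55 (SD, n = 6), followed by the clamp Pcna at 119 ± 3.68. The 6 helicase subunits came next, from Mcm6 at 87.2 ± 4.98 over Mcm3 at 66.4 ± 3.82, Mcm4 at 66.3 ± 2.67, Mcm7 at 63.5 ± 3.13 and Mcm2 at 53.2 ± 2.90 to Mcm5 at 45.5 ± 1.47. At the low end stood Gins3 at 5.07 ± 0.26, Gins2 at 4.73 ± 0.37, the licensing subunit Orc1 at 4.23 ± 0.20 and the flap nuclease Fen1 at 1.01 ± 0.20. Of the 44 neighbouring pairs in this order, 32 had libraries that overlapped. With the length of all annotated exons in place of the principal transcript, Rrm2, Pcna and Mcm4 led and the lowest 4 were Gins3, Gins2, Orc1 and Fen1.

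**Figure D1:**
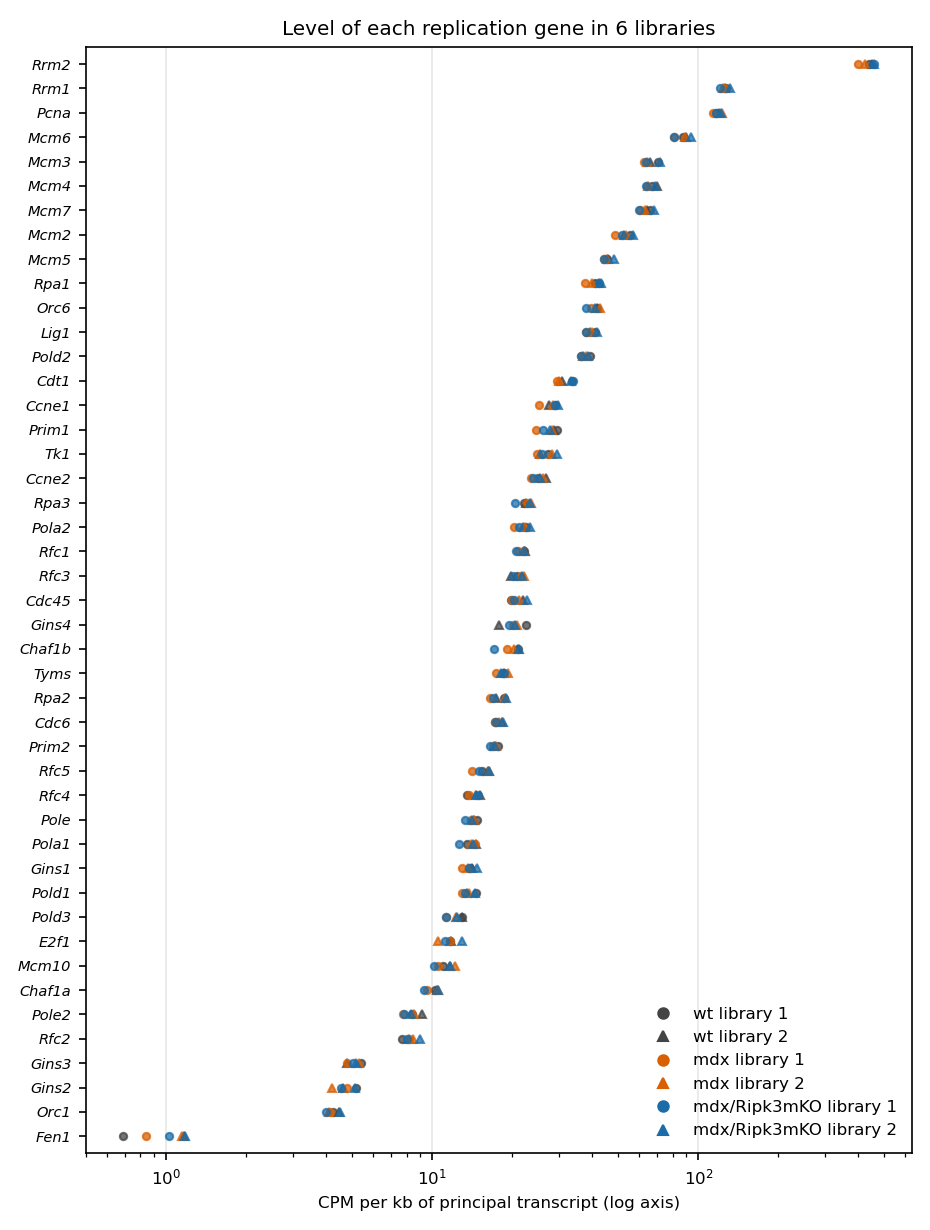
Level of the 45 replication genes in each library, as CPM per kb of principal transcript on a log axis, ordered by their mean. Colours give the group and symbols the library. Symbols of the 6 libraries lie close together for each gene, from Rrm2 at a mean of 438 to Fen1 at 1.01, where they spread most.

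Fen1, which removes the flaps of Okazaki fragments, had scaled counts of 34 and 57 (wt), 42 and 56 (mdx) and 51 and 58 (mdx/Ripk3mKO). This is far below Lig1, the ligase acting beside it, at 2698 and 2571 (wt), 2526 and 2596 (mdx) and 2523 and 2751 (mdx/Ripk3mKO). Fen1 (ENSMUSG00000024742, mm10 chromosome 19, 10199132 to 10204169, minus strand) shares 84.2% of its exon bases with genes on the opposite strand in GENCODE vM21, the antisense gene Gm10143, listed at 7 to 19 scaled counts, and Tmem258, at 815 to 888. The strand setting of the counting is not stated by the sources used here, and the part of this overlap in the level of Fen1 was not tested. The same holds for Gins2, with 67.3% of exon bases shared with Gse1, and for Chaf1a, with 52.5% shared with Ubxn6. For the other 42 genes opposite-strand overlap covered at most 17.4% of exon bases.

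Levels of single replication genes hardly varied between libraries. The ratio of the highest to the lowest library had a median of 1.13 over the 45 genes, from 1.06 to 1.71. Over all 14077 genes tested the median ratio was 1.21, and over the 8208 genes at least as abundant as the scarcest replication gene other than Fen1 it was 1.14. The most even gene was the primase subunit Prim2, at 722 and 696 (wt), 705 and 705 (mdx) and 682 and 707 (mdx/Ripk3mKO). Pcna was at 3674 and 3771 (wt), 3609 and 3841 (mdx) and 3737 and 3841 (mdx/Ripk3mKO), and groups overlapped in each comparison. Beyond Fen1, the widest ratio was that of Gins4, a GINS subunit, at 1.26, with both extremes, 630 and 499, in wt.

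No replication gene passed the test in any comparison. Differences were estimated with limma on log2(scaled count + 1) in 1 fit over all 6 libraries, with p-values adjusted over the 14077 genes tested by the Benjamini-Hochberg method and a threshold of 0.05. All 45 genes passed the filter on low values. Fold changes are on that log2 scale, each with its moderated standard error. Apart from Fen1, the 95% interval of each of the 44 other genes lay within a 1.5-fold change in either direction in all 3 comparisons. A p that misses the threshold does not show that groups were alike. These intervals give the sizes of change allowed by the spread of these libraries, which may be technical. They treat each gene alone and leave out shifts that many genes of a library share. In an F-test over the 3 groups (limma), 0 of 45 genes were called and 3 had an unadjusted p under 0.05, beside 0.0781% of all genes called and 7.87% under that unadjusted p.

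**Figure D2:**
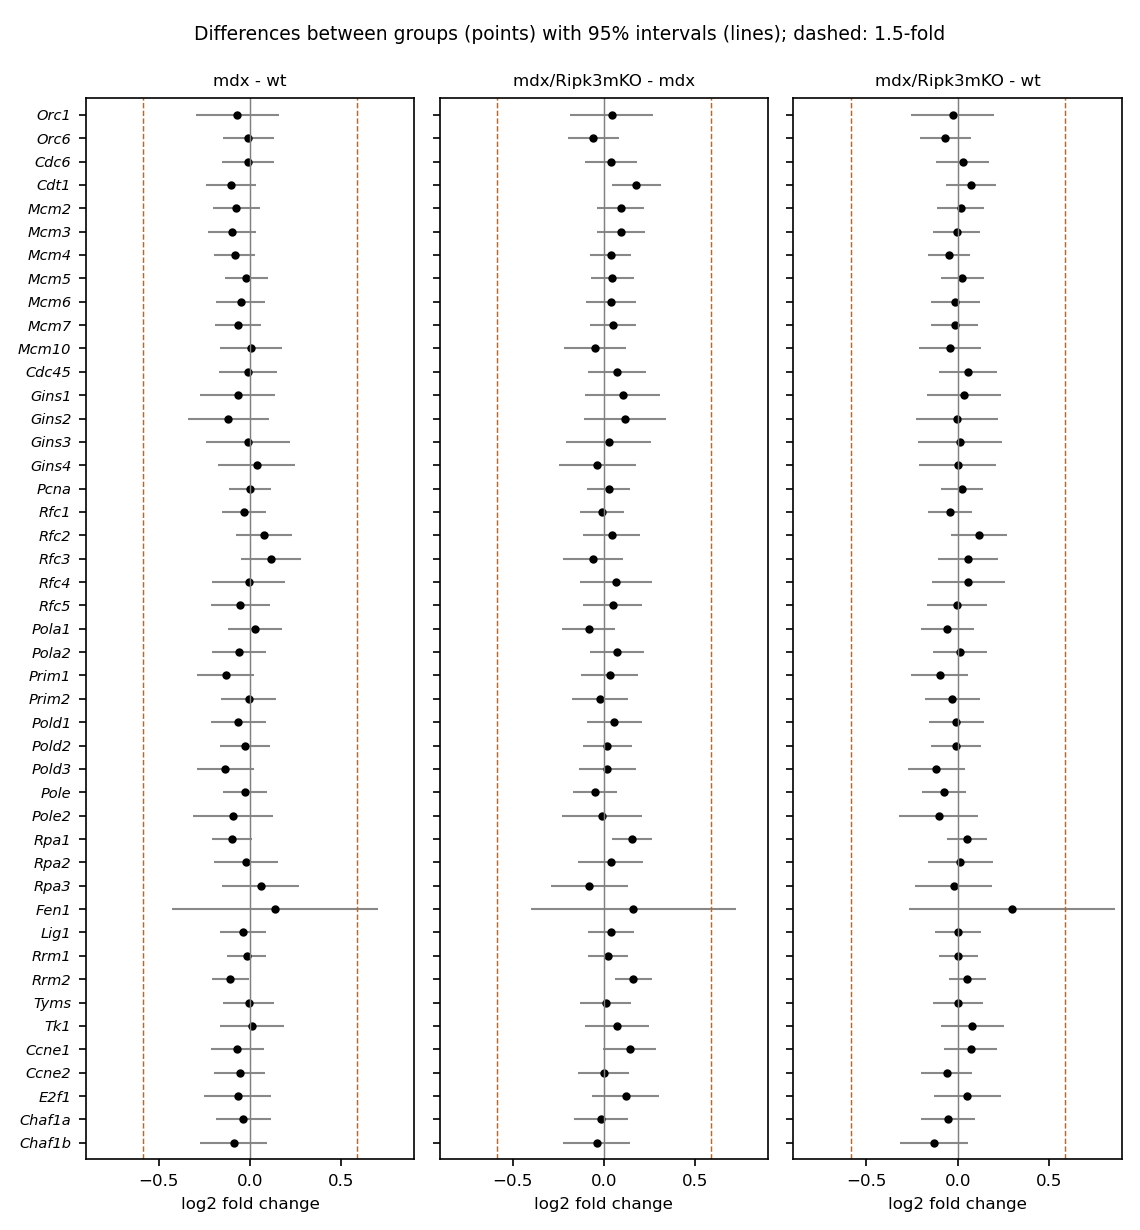
Log2 fold changes of the 45 replication genes in the 3 comparisons (points) with 95% intervals (lines, limma), with dashed lines at 1.5-fold. Fen1 alone has intervals that cross a dashed line, and most points lie left of 0 for mdx against wt and right of 0 for mdx/Ripk3mKO against mdx.

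Of mdx against wt, 36 of the 45 genes were at a lower mean in mdx and 9 at a higher one, where 50.9% of all genes were lower and 49.0% higher. The median difference was -0.037 against -0.0022 over all genes. By limma 0 genes were called, beside 0.00710% of all genes, and 1 gene, lower in mdx, had an unadjusted p under 0.05, beside 6.46% of all genes (3.44% higher and 3.02% lower). The libraries of both groups did not overlap for 16 of the 45, 13 lower and 3 higher in mdx, while 35.9% of all genes did not overlap (18.3% lower and 17.6% higher), so this share is near the background. Without mdx library 1 the split was 25 lower and 20 higher, and without mdx library 2 it was 39 and 6.

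Nucleotide supply and single-strand binding held the smallest p in that comparison. Rrm2, the regulated small subunit of ribonucleotide reductase (ENSMUSG00000020649, chromosome 12, 24708241 to 24714146), had scaled counts of 20014 and 20443 (wt), 18316 and 19206 (mdx) and 21072 and 20899 (mdx/Ripk3mKO). Both mdx libraries were below all others. The difference of mdx from wt was -0.11 ± 0.05 (limma, adjusted p = 0.743, n = 2 and 2). Its partner Rrm1 overlapped between groups in each comparison, at 10575 and 10399 (wt), 10459 and 10242 (mdx) and 10151 and 10894 (mdx/Ripk3mKO). Rpa1, the large subunit of the single-strand binding protein RPA (ENSMUSG00000000751, chromosome 11, 75298166 to 75348324), was at 4316 and 4428 (wt), 3988 and 4169 (mdx) and 4532 and 4533 (mdx/Ripk3mKO). Its mdx libraries were also below the rest, by -0.10 ± 0.05 against wt (limma, adjusted p = 0.805). The smaller subunit Rpa2 was at 699 and 649 (wt), 629 and 699 (mdx) and 647 and 715 (mdx/Ripk3mKO), with overlap throughout.

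All 6 genes of the MCM2-7 helicase had lower means in mdx than in wt, with a median of -0.072. For 4 of them the libraries did not overlap, beside 35.9% of all genes (18.3% lower). Among these 4, Mcm5 was at 3196 and 3204 (wt) and 3133 and 3175 (mdx), a difference of -0.02 ± 0.05. Without mdx library 1, 5 of the 6 were lower, with a median of -0.039. Mcm3 was at 4451 and 4126 (wt), 3994 and 4012 (mdx) and 4046 and 4501 (mdx/Ripk3mKO) (-0.10 ± 0.06, limma, adjusted p = 0.83), a difference that was -0.044 without wt library 1 and -0.15 without wt library 2. Mcm4 was at 5008 and 5202 (wt), 4833 and 4796 (mdx) and 4783 and 5101 (mdx/Ripk3mKO) (-0.08 ± 0.05, limma, adjusted p = 0.832). Mcm6 was at 5298 and 5411 (wt), 4974 and 5366 (mdx) and 4978 and 5658 (mdx/Ripk3mKO), with a low and a high library in both groups that carry an mdx label. Mcm2 also had its lowest library in mdx and its highest in mdx/Ripk3mKO, at 3890 and 3673 (wt), 3458 and 3716 (mdx) and 3667 and 3988 (mdx/Ripk3mKO). The 4 licensing genes had lower means in mdx as well, with a median of -0.042 and adjusted p of 0.827 to 0.992 (limma), and without mdx library 1, 2 of the 4 were lower. Among them Cdt1, which loads the helicase with Cdc6 (ENSMUSG00000006585, chromosome 8, 122568015 to 122573128), was at 1519 and 1387 (wt), 1352 and 1348 (mdx) and 1552 and 1503 (mdx/Ripk3mKO). Its difference of mdx from wt, -0.10 ± 0.06, was -0.039 without wt library 1, -0.17 without wt library 2 and -0.059 with GC content and exon length corrected. Orc6 was at 1109 and 1106 (wt), 1067 and 1135 (mdx) and 1024 and 1091 (mdx/Ripk3mKO).

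Of the 9 polymerase and primase genes 8 had lower means in mdx, with a median of -0.059, and without mdx library 1 the count was 9 and the median -0.022. The polymerase delta subunit Pold3 was at 822 and 824 (wt), 725 and 774 (mdx) and 729 and 790 (mdx/Ripk3mKO), a difference of -0.14 ± 0.07 between mdx and wt (limma, adjusted p = 0.81), or -0.088 without mdx library 1. The catalytic primase subunit Prim1 was at 965 and 936 (wt), 819 and 917 (mdx) and 866 and 908 (mdx/Ripk3mKO), at -0.13 ± 0.07 (limma, adjusted p = 0.81), or -0.052 without mdx library 1 and -0.21 without mdx library 2. Both genes were below wt in all 4 libraries of the other groups. The catalytic subunit of polymerase alpha, Pola1, went the other way by 0.03 ± 0.07, at 1494 and 1619 (wt), 1630 and 1541 (mdx) and 1422 and 1573 (mdx/Ripk3mKO). Clamp loader genes were split, with Rfc3 higher in both mdx libraries (568 and 540 in wt, 599 and 602 in mdx, 559 and 595 in mdx/Ripk3mKO, 0.12 ± 0.08, limma, adjusted p = 0.84) and the large subunit Rfc1 at 2173 and 2190 (wt), 2100 and 2166 (mdx) and 2061 and 2176 (mdx/Ripk3mKO).

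**Figure D3:**
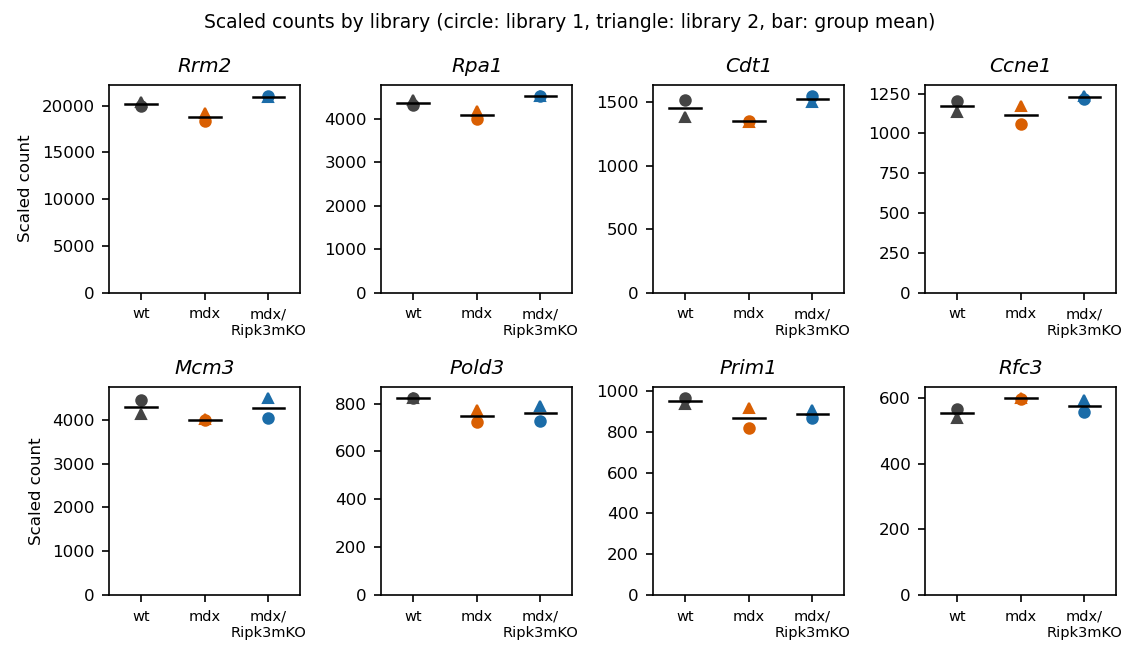
Scaled counts of 8 replication genes among those with the smallest p, by group, on axes that start at 0. Circles are library 1, triangles library 2 and bars group means. For Rrm2 and Rpa1 both mdx libraries lie below the other 4, as with 18316 and 19206 against at least 20014 for Rrm2.

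Of mdx/Ripk3mKO against mdx, 32 of the 45 genes were at a higher mean in mdx/Ripk3mKO and 13 at a lower one, where 49.2% of all genes were higher and 50.7% lower. This comparison uses the same mdx libraries as the one with wt, so the directions in both are not independent. The median difference was 0.039 against -0.0021 over all genes. By limma 0 genes were called, beside 0.206% of all genes, and 3, all higher, had an unadjusted p under 0.05, beside 11.6% of all genes (5.77% higher and 5.87% lower). Libraries did not overlap for 9 of the 45, 7 higher and 2 lower, against 41.3% of all genes (21.0% higher and 20.3% lower), a smaller share than the background. Without mdx/Ripk3mKO library 1, the one with high Xist, 39 genes were higher and the median was 0.099, and without library 2 only 18 were higher and the median was -0.013. Without mdx library 1, 22 were higher and the median was -0.0076.

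The 3 genes with an unadjusted p under 0.05 were Rrm2, Rpa1 and Cdt1, whose values in each library are given above. Rrm2 was 0.16 ± 0.05 higher in mdx/Ripk3mKO (limma, adjusted p = 0.197), Rpa1 0.15 ± 0.05 (limma, adjusted p = 0.267) and Cdt1 0.18 ± 0.06 (limma, adjusted p = 0.299). For all 3 both mdx/Ripk3mKO libraries were above both mdx libraries. Without mdx/Ripk3mKO library 1 the differences of Rrm2, Rpa1 and Cdt1 were 0.16, 0.15 and 0.15. With GC content and exon length corrected, that of Cdt1 was 0.083 (limma, adjusted p = 0.688). Cyclin E1 (Ccne1), which activates Cdk2 at the start of S phase, was at 1203 and 1136 (wt), 1058 and 1170 (mdx) and 1219 and 1236 (mdx/Ripk3mKO), a difference of 0.14 ± 0.07 (limma, adjusted p = 0.445), or 0.069 without mdx library 1 and 0.21 without mdx library 2. Cyclin E2 (Ccne2) lay within overlapping ranges, at 1556 and 1661 (wt), 1479 and 1615 (mdx) and 1507 and 1580 (mdx/Ripk3mKO). The transcription factor E2f1 was at 659 and 662 (wt), 669 and 594 (mdx) and 640 and 733 (mdx/Ripk3mKO), at 0.12 ± 0.09 (limma, adjusted p = 0.639). Its highest and lowest libraries were mdx/Ripk3mKO library 2 and mdx library 2, and without these its difference was 0.022 and 0.034. It was 0.22 without mdx/Ripk3mKO library 1, 0.21 without mdx library 1 and 0.032 with the GC and length correction. The helicase genes were higher in 6 of 6 cases with a median of 0.048, but only Mcm3 did so without overlap. Without mdx/Ripk3mKO library 2, 2 of the 6 were higher and the median was -0.0077, and without library 1 it was 6 of 6 and 0.13. The difference of Mcm3, 0.09 ± 0.06, was 0.015 without library 2 and 0.17 without library 1.

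Between mdx/Ripk3mKO and wt the genes were evenly split, with 22 lower and 23 higher and a median of 0.00044 against 0.0012 over all genes, of which 49.4% were lower and 50.5% higher. By limma 0 genes were called and 0 had an unadjusted p under 0.05, beside 0% and 3.32% of all genes (1.24% higher and 2.09% lower), and adjusted p was 1 for each of the 45. Libraries did not overlap for 9 genes, 4 higher and 5 lower, against 29.4% of all genes (14.4% higher and 15.1% lower). Without mdx/Ripk3mKO library 1 the split was 10 lower and 35 higher, and without library 2 it was 34 and 11. The polymerase and primase genes were lower in 8 of 9 cases with a median of -0.056, but in 5 of 9 with a median of -0.0038 without mdx/Ripk3mKO library 1. Among them were Pold3 at -0.12 ± 0.07, Prim1 at -0.10 ± 0.07 and the polymerase epsilon subunit Pole at -0.08 ± 0.06, which without that library were -0.059, -0.066 and -0.045. Pole was at 2192 and 2123 (wt), 2110 and 2125 (mdx) and 2003 and 2091 (mdx/Ripk3mKO). The clamp loader subunit Rfc2 was at 799 and 843 (wt), 859 and 870 (mdx) and 847 and 935 (mdx/Ripk3mKO), 0.12 ± 0.07 above wt, or 0.19 without library 1 and 0.045 without library 2. The CAF-1 histone chaperone subunits Chaf1a and Chaf1b had lower means. Chaf1b was at 837 and 836 (wt), 771 and 801 (mdx) and 692 and 844 (mdx/Ripk3mKO), and Chaf1a was at 1179 and 1191, 1110 and 1201, and 1085 and 1203 in the same order. For both, mdx/Ripk3mKO library 1 was the lowest of all and library 2 the highest, and without library 1 both were above wt, by a median of 0.017. Rbbp4, the third CAF-1 subunit and one of the other S-phase genes, was at 11619 and 11652 (wt), 11175 and 11065 (mdx) and 11876 and 11903 (mdx/Ripk3mKO), 0.03 ± 0.05 above wt.

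Replication genes differed as a body between libraries of the same label. In mdx/Ripk3mKO library 2, 42 of 45 genes were above their own mean over the 6 libraries, and their median deviation was 0.065 on the log2 scale. In library 1 of the same group 9 were above it, with a median of -0.042. The direct comparison of these libraries put 41 of 45 genes higher in library 2, by a median of 0.10, where 49.6% of all genes were higher. In mdx, library 2 was higher than library 1 for 37 genes and lower for 7, by a median of 0.054, where 48.8% of all genes were higher. In wt the genes were split, with 24 higher in library 2 and 21 lower (median 0.0035). In size, the median differences between single libraries of mdx/Ripk3mKO and of mdx were above the -0.037 and 0.039 found between groups. Those between groups compare means of 2 libraries, which vary less than single libraries, so the sizes are not on the same footing. Mcm10, which helps to fire the helicase, was at 1109 and 1171 (wt), 1073 and 1219 (mdx) and 1035 and 1182 (mdx/Ripk3mKO), higher in library 2 of each group. Cdc45, part of the active helicase, was at 880 and 969 (wt), 897 and 934 (mdx) and 917 and 1007 (mdx/Ripk3mKO), also higher in library 2 of each group, wt included. Library numbers need not mean the same in each group, since those of mdx follow column order.

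**Figure D4:**
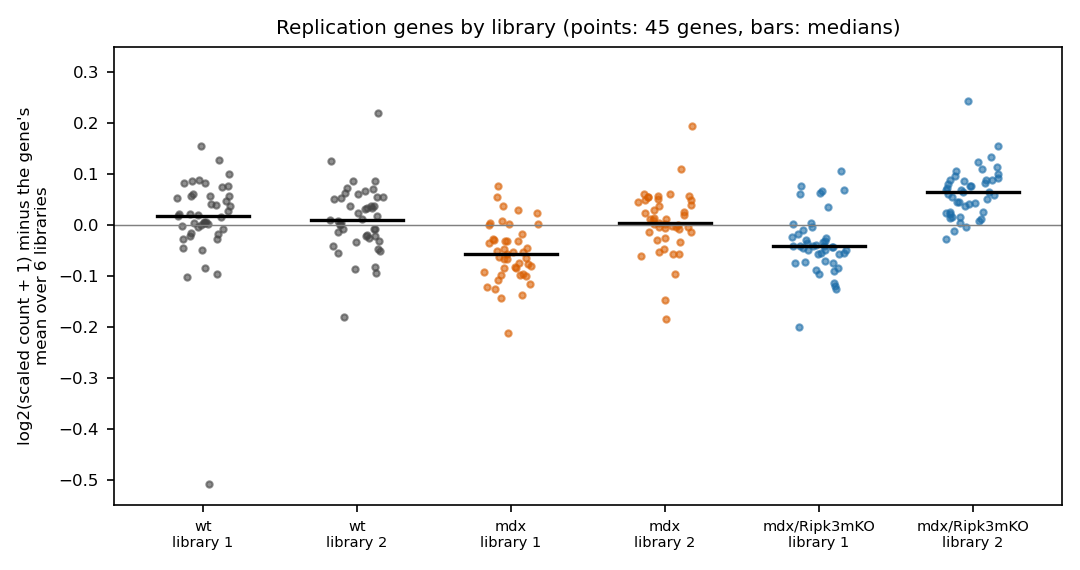
Deviation of the 45 replication genes (points) from their own mean over 6 libraries, by library, on the log2(scaled count + 1) scale, with medians as bars. The medians of mdx library 1 (-0.057) and mdx/Ripk3mKO library 1 (-0.042) lie below 0 and that of mdx/Ripk3mKO library 2 (0.065) above it, while the other 3 lie nearer to 0.

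Other cell cycle genes were set beside these for the same libraries. In mdx/Ripk3mKO library 1 the median deviation was -0.065 for 32 other replication genes, -0.051 for 34 other S-phase genes and -0.069 for 20 G2/M genes, with 0 of the 20 above their own mean. In library 2 these medians were 0.028, 0.040 and 0.068. In mdx library 1 they were -0.035, -0.042 and -0.033. The summed level of 10 myogenic markers was 10679 CPM in mdx/Ripk3mKO library 1 and 9450 in library 2, 10259 and 9329 in the mdx libraries and 10169 and 9195 in the wt libraries. Acta1 weighs most in this sum, at 4058 and 3168 CPM in mdx/Ripk3mKO. In CPM, Myod1, Cdh15, Vcam1 and Itga7 were higher in library 2 of that group and the rest lower. The median deviation of the 10 markers was 0.083 and -0.028 in mdx/Ripk3mKO, -0.0081 and -0.059 in mdx and 0.037 and -0.061 in wt. The part of myogenic and fibroblast markers and of the sex-linked difference in these library values was not tested. In bulk RNA fewer cycling cells and less of these transcripts per cell cannot be told apart.

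Of the other replication genes none was called by limma, with 18 of 32 lower in mdx than in wt (median -0.023) and 3 at an unadjusted p under 0.05, beside 6.46% of all genes. Between mdx/Ripk3mKO and mdx 14 of 32 were higher, with a median of -0.027, where 49.2% of all genes were higher. Between mdx/Ripk3mKO and wt 24 of 32 were lower, with a median of -0.039, where 49.4% of all genes were lower. The mdx/Ripk3mKO libraries differed here, with 7 of the 32 above their own mean in library 1 and 23 in library 2. Cdc7, the kinase that triggers origin firing, was at 521 and 540 (wt), 409 and 460 (mdx) and 422 and 483 (mdx/Ripk3mKO) (mdx against wt -0.29 ± 0.09, limma, adjusted p = 0.586). The small polymerase delta subunit Pold4 went the other way, at 409 and 387 (wt), 481 and 517 (mdx) and 424 and 333 (mdx/Ripk3mKO). It stood 0.33 ± 0.11 above wt in mdx (limma, adjusted p = 0.586) and -0.41 ± 0.11 in mdx/Ripk3mKO against mdx (limma, adjusted p = 0.159). Ticrr, which brings Cdc45 to origins, was at 910 and 909 (wt), 811 and 849 (mdx) and 733 and 856 (mdx/Ripk3mKO) (mdx/Ripk3mKO against wt -0.20 ± 0.08, limma, adjusted p = 1). Of 34 other S-phase genes 20 were lower in mdx than in wt and 0 were called by limma. At an unadjusted p under 0.05 there were 2, both lower, beside 6.46% of all genes (3.02% lower). They were the histone chaperone Asf1b, at 1226 and 1203 (wt), 1040 and 1113 (mdx) and 1091 and 1229 (mdx/Ripk3mKO), and E2f2, at 1632 and 1403, 1344 and 1326, and 1434 and 1557. Between mdx/Ripk3mKO and mdx 17 of the 34 were higher. E2f2 alone had an unadjusted p under 0.05 (0.16 ± 0.07, limma, adjusted p = 0.418), beside 11.6% of all genes (5.77% higher). Of 20 G2/M genes 12 were lower in mdx than in wt and 10 were higher in mdx/Ripk3mKO than in mdx, with 0 called by limma in either. At an unadjusted p under 0.05 there were 0 in the first, beside 6.46% of all genes, and 4 in the second, 3 lower and 1 higher, beside 11.6%. Mki67, the proliferation marker, was at 14852 and 15531 (wt), 15928 and 16904 (mdx) and 13883 and 15067 (mdx/Ripk3mKO). Its highest libraries were those labelled mdx, where Rrm2 had its lowest, and mdx/Ripk3mKO stood at -0.18 ± 0.05 against mdx (limma, adjusted p = 0.209). Mki67 was among the 3 lower G2/M genes, and the 1 higher gene was Aurka. Aurka was at 2166 and 2270 (wt), 1971 and 2101 (mdx) and 2141 and 2445 (mdx/Ripk3mKO). Both its mdx libraries were below all others, as for Rrm2. In mdx/Ripk3mKO Aurka stood 0.17 ± 0.07 above mdx (limma, adjusted p = 0.355).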

How the data were processed

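Total RNA of 6 libraries was made with a low-input stranded kit, per the labels' protocols. The table the authors deposited gives whole numbers per gene that behave as counts after scaling and rounding, because small values are skipped or doubled in a regular way. These deposited values were scaled by the authors in a way no header records, and were handled as a score, with no count model. The tools listed in the submitters' processing notes, with no roles, are STAR 2.6.1d, Trimmomatic 0.36, DESeq2 1.18.1 and featureCounts 1.6.3, and the build is mm10. Both mdx columns carry the same header and were used as mdx libraries 1 and 2 in column order.

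The test took the 14077 genes that reached 10 scaled counts in 2 or more libraries and left out 438. limma 3.58.1 in R 4.3.3 was fitted to log2(scaled count + 1), with a variance trend, robust moderation (statmod 1.5.0) and 3 residual degrees of freedom. The fit was also run on simulated data, whose outcome is not given here. Genes were drawn independently there, without shifts shared by the genes of a library. Depth before scaling was estimated from divisors that explain the skipped and doubled values. Described genes are the 8 with the smallest p per comparison and the 2 most abundant per role, up to 3 per list of other cell cycle genes, and a few named after their values were seen (Prim2, Gins4 and genes placed in the order of levels). The members and lists were chosen with earlier results of these data known. Coordinates are those of the table. GENCODE vM21 gave lengths, GC content and overlaps for 99.91% of genes. Protein motifs were planned and not analysed here.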

Additional observations from a re-analysis of the deposited data

How the results depend on the processing

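The count of replication genes called stayed at 0 in all comparisons under every setting run: other pseudocounts, no filter on low values, CPM or quantile scaling, no variance trend or robust fitting, only the groups compared, correction for GC content and exon length, the replicate block and each library left out. The median difference of the 45 genes ranged without single libraries from -0.069 to -0.010 for mdx against wt, from -0.013 to 0.099 for mdx/Ripk3mKO against mdx and from -0.056 to 0.050 for mdx/Ripk3mKO against wt. Over all genes the calls without single libraries ranged from 0 to 103, from 1 to 278 and from 0 to 20 in the same order. With only the groups compared they were 103 in place of 1 for mdx against wt and 2 in place of 29 for mdx/Ripk3mKO against mdx, and without trend and robust fitting 1 in place of 29. The cause was not tested. The replicate block could be fitted for mdx/Ripk3mKO and wt alone, since the mdx columns carry no separate numbers. It left 0 genes called, and 3 with the GC and length correction. The labels do not say that the numbers mark more than a sample. Differences between libraries 1 and 2 had a correlation of -0.0088 between these groups over 13761 genes. This single value cannot show whether the numbers mark a batch. Without single libraries the difference of mdx/Ripk3mKO from wt ranged from -0.066 (without wt library 1) to 0.66 for Fen1 and from -0.27 to 0.013 (without mdx/Ripk3mKO library 1) for Chaf1b. Counts of genes on each side of 0 under these settings, for all 45 and by role, were chosen after seeing the data. Scaled to library totals, the split of mdx/Ripk3mKO against wt was 26 lower and 19 higher. Where leaving out a library left 1 in a group, it was assumed to vary like the others. The scaling hides the depth of each value, and 2 libraries a group limit what can be called.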
